A study of Mus with 14 samples.

Results

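The cells described here are early granulocyte progenitors that carry transcripts of the neutrophil protease gene Elane and of the transcription factor gene Gfi1 but none of Cebpe. They were 401 of the 70038 cells kept from 14 single-cell libraries of mouse bone marrow, or 0.573%, and each library held 7 to 66 of them. A cell was chosen when it had at least 1000 UMIs (unique molecular identifiers, each standing for 1 captured transcript), at least 500 detected genes, under 10% of its UMIs from mitochondrial genes, at least 10 UMIs of Elane, at least 1 of Gfi1, and 0 of Cebpe, F13a1, Irf8 and Ms4a2. The rule was set with earlier results of these data in view. The comparison population throughout is the 5313 cells that pass the same rule but carry at least 1 UMI of Cebpe, called Cebpe-positive cells. Together the 5714 cells make up a granulocyte pool of which 7.02% was Cebpe-negative.

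Neutrophils arise from granulocyte-monocyte progenitors in a fixed sequence. Promyelocytes first fill their primary (azurophil) granules with myeloperoxidase and the serine proteases neutrophil elastase, proteinase 3 and cathepsin G. The transcription factor C/EBPε, the product of Cebpe, is then needed for the myelocyte stage and for the genes of the secondary granules. GFI1 is a repressor that favours the granulocyte over the monocyte fate, and F13a1, Irf8 and Ms4a2 mark the monocyte, monocyte-dendritic and basophil-mast alternatives that the rule removes. DNMT3A is a DNA methyltransferase that is often mutated in clonal haematopoiesis, and TNF, a cytokine of inflammation, signals through the receptors encoded by Tnfrsf1a (TNFR1) and Tnfrsf1b (TNFR2).

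The marrow came from 4 genotypes: MxCre (3 mice), Dnmt3a (4), Dnmt3a;Tnfr1KO (3) and Dnmt3a;Tnfr2KO (4), with 1 library a mouse. Mx-Cre is a recombinase that poly(I:C) switches on through interferon in blood cells and in some other tissues. The labels do not name the Dnmt3a allele, nor say whether the Dnmt3a groups carry the Cre, and MxCre is the control genotype. In all groups CD45.2+ marrow was first transplanted together with CD45.1+ competitor marrow into aged, lethally irradiated CD45.1+ recipients, which received 1 injection of poly(I:C). Their marrow was then moved to aged, irradiated secondary recipients and lineage-negative Kit+ CD45.2+ cells were sorted after 20 weeks. The labels do not tie secondary to primary recipients, so mice of 1 group may share a donor, and p-values then measure only the spread between these mice. The study asked how each TNF receptor bears on Dnmt3a-mutant blood formation.

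The libraries held 3042 to 9724 barcodes and 62416022 to 162869740 UMIs, and the filter kept 66.7% to 94.4% of barcodes except in Dnmt3a replicate 1, where it kept 26.9%. A doublet score ranked the cells of each library, and the number marked was set beforehand at 0.8% per 1000 kept cells. It marked 17 of the 401 Cebpe-negative cells (4.24%) and, by that setting, 4.49% of all kept cells, and doublets were left in. Of 69438 distinct barcodes 595 occurred in more than 1 library, 7 of the chosen cells had such a barcode, and none was chosen in 2 libraries. Free RNA in the droplets was gauged from 4274 erythroid cells (Klf1 of at least 2 UMIs and Gata1 of at least 1), which should lack Elane. They leave out cells of the granulocyte pool and cells that failed the rule only through F13a1 or Irf8. Their median was 1 Elane UMI at a median depth of 25222 UMIs, 3.70% of them reached 10 Elane UMIs, and the 99th percentile was 336. Whether that upper tail is free RNA, doublets or true expression was not tested.

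The markers that name the cells were checked first. Elane and Gfi1 are part of the rule, so their levels describe the choice: the cells had a median of 40 Elane UMIs (quartiles 18 and 112, highest 660), and 247 of them (61.6%) met the Gfi1 condition with a single UMI. The other 3 markers were not used by the rule. Prss57, a further granule serine protease, stood at 191 CPM (UMIs of the gene per 1000000 UMIs, the cells of a set summed) against 359 CPM in Cebpe-positive cells. B4galt6, a glycolipid-synthesising galactosyltransferase, stood at 32.9 against 82.9 CPM, and Rgcc, a regulator of the cell cycle, at 204 against 471 CPM. All 3 were lower than in the Cebpe-positive cells in 14 of 14 libraries. In cells thinned to 10000 UMIs each, Prss57 was detected in 69.9% of Cebpe-negative cells, 92.0% of Cebpe-positive cells, 68.0% of the Elane- and Gfi1-positive, Cebpe-negative cells that carry F13a1 or Irf8, and 9.24% of erythroid cells. B4galt6 was detected in 21.7%, 48.4%, 16.9% and 1.21% of the same sets. The markers were therefore present above the erythroid background, but at shares near those of the monocyte-side cells, and the cells are called by their rule, Cebpe-negative cells, from here on.

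Sequencing depth entered the choice, because a cell with few UMIs can miss Cebpe by chance of sampling. Cebpe-negative cells had a median of 19768 UMIs and Cebpe-positive cells 28878, and 79 of the former (19.7%) but 102 of the latter (1.92%) had under 10000. Across 6 bins of rising depth the Cebpe-negative share of the granulocyte pool was 80.6% (25 of 31 cells), 53.6% (30 of 56), 25.5% (24 of 94), 14.3% (125 of 874), 4.74% (179 of 3773) and 2.03% (18 of 886), with exact 95% binomial intervals of 62.5% to 92.5% in the shallowest bin and 1.21% to 3.19% in the deepest. These intervals cover counting error only. Cebpe-positive cells had a median of 6 Cebpe UMIs, and 444 of them (8.36%) had 1. The cells under 10000 UMIs came from 11 libraries, and 29 of the 56 Cebpe-negative cells of Dnmt3a;Tnfr1KO replicate 1 (51.8%) and 6 of the 10 of Dnmt3a replicate 4 (60.0%) were among them. They had 9411 CPM of Elane and 712 CPM of S100a8, an alarmin of later neutrophils, while the 322 deeper cells had 4195 and 81.5 CPM. The rule asks for at least 10 Elane UMIs at any depth, so a shallow cell must hold more Elane CPM to be chosen. How much of the higher Elane level follows from the rule, and its bearing on S100a8, was not tested. The cells under 10000 UMIs had 7373 CPM of Mpo, 1720 CPM of Ms4a3 and 384 CPM of Prss57. The Cebpe-positive cells of at least 10000 UMIs had 7710, 1804 and 359 CPM, with 9976 CPM of Elane and 2496 CPM of S100a8. Whether the shallow cells are Cebpe-positive cells whose Cebpe was missed was not tested. The cells under 10000 UMIs also had 9311 CPM of Gm42418, a locus that overlaps ribosomal RNA, against 2879 CPM. Contrasts with Cebpe-positive cells below therefore use the cells of at least 10000 UMIs on both sides.

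**Figure D1:**
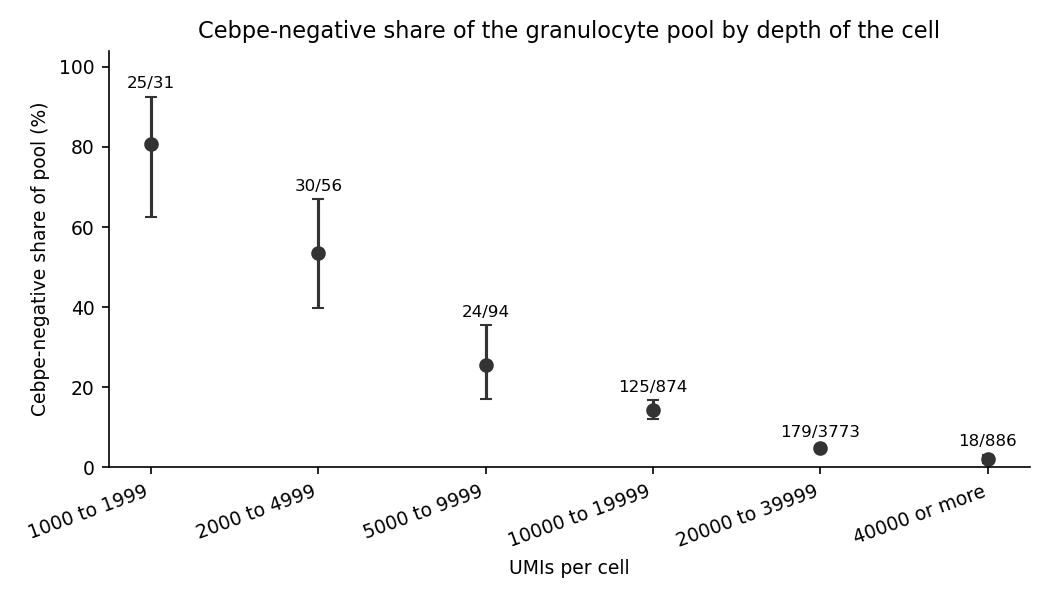
Cebpe-negative share of the granulocyte pool (percent, vertical axis, with exact 95% binomial intervals) in 6 bins of UMIs per cell (horizontal axis), over all 14 libraries. The share falls from 80.6% in the shallowest bin to 2.03% in the deepest.

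The cells just inside and just outside each threshold were described without a test. The 52 cells with 10 to 12 Elane UMIs had 308 CPM of Cd34 and 3185 CPM of Mpo, and the 47 cells with 7 to 9 Elane UMIs that met the other conditions had 347 and 2466 CPM. Cells with 1 Cebpe UMI, the nearest outside on that side, had 6515 CPM of Elane, 167 CPM of Cd34, 255 CPM of Prss57 and 333 CPM of S100a8. The 869 cells that failed only for lack of a Gfi1 UMI had a median of 3079 UMIs in all.

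The primary granule genes were expressed strongly in every library but below the level of Cebpe-positive cells. Mpo, which encodes myeloperoxidase, was at 4598, 5056 and 5355 CPM in the MxCre mice, 3475, 4081, 5160 and 4493 CPM in the Dnmt3a mice, 5595, 4303 and 5382 CPM in the Dnmt3a;Tnfr1KO mice, and 6875, 4646, 4596 and 5399 CPM in the Dnmt3a;Tnfr2KO mice. The 4 ranges overlapped, and 5043 CPM in the deeper Cebpe-negative cells stood against 7710 CPM in the deeper Cebpe-positive cells. Prtn3 (proteinase 3) ranged from 3114 to 6501 CPM with a median of 4493 CPM over the 14 mice. Ctsg (cathepsin G) ranged from 2571 to 5089 CPM with a median of 3988 CPM. Mpo, Prtn3 and Ctsg were each lower than in Cebpe-positive cells in 14 of 14 libraries, by 1.53-, 1.74- and 1.58-fold.

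In GRCm38, Prss57 (79781474 to 79794684), Prtn3 (79879667 to 79883174) and Elane (79886312 to 79888216) lie close together on chromosome 10, while Ctsg and Cebpe lie on chromosome 14 and Mpo on chromosome 11. Prss57 varied between mice, at 158, 71.2 and 282 CPM in MxCre, 127, 169, 181 and 134 CPM in Dnmt3a, 235, 143 and 190 CPM in Dnmt3a;Tnfr1KO, and 267, 115, 278 and 162 CPM in Dnmt3a;Tnfr2KO. Both extremes, 71.2 and 282 CPM, were MxCre mice. The other primary granule genes followed the same order between the populations: of the 19 listed genes besides Elane, 18 were lower in Cebpe-negative than in Cebpe-positive cells, with a median log2 ratio of -0.84 (each CPM raised by 10 before the ratio). All 5358 genes compared had a median of 0.05, with 39.1% of them lower. Ms4a3, a membrane protein of granulocyte-monocyte progenitors, ranged from 629 to 1301 CPM over the mice. Srgn, the proteoglycan that packs granule proteases, stood at 1775 against 2896 CPM and Cd63, a granule membrane tetraspanin, at 388 against 801 CPM. Fcnb (ficolin) stood at 4.41 against 70.8 CPM, while Ctsc, the protease that activates the granule proteases, was the 1 listed gene that was not lower, at 29.1 against 27.5 CPM.

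Transcripts of the later granules were scarce. All 14 of the secondary granule and maturation genes compared were lower in Cebpe-negative than in Cebpe-positive cells, 11 of them more than 2-fold (0.803% of all genes compared were), with a median log2 ratio of -1.48. This contrast uses the population that defined the choice and is a description only. S100a8 stood at 81.5 CPM in the deeper Cebpe-negative cells and at 2496 CPM in the deeper Cebpe-positive cells, and S100a9, its partner subunit, at 32.3 against 2018 CPM. Camp, which encodes the cathelicidin of secondary granules, stood at 7.40 against 739 CPM, and Ngp (neutrophilic granule protein) at 3.50 against 352 CPM. S100a8 was lower in 14 of 14 libraries and S100a9, Camp and Ngp each in 13 of 14. S100a8 in the other kept cells of the libraries ranged from 215 to 11834 CPM, and the part of free RNA in these low levels was not tested. In thinned cells S100a8 was detected in 29.5% of Cebpe-negative, 48.3% of Cebpe-positive and 13.1% of erythroid cells.

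Genes of stem and multipotent progenitors lay on the other side. All 13 compared were higher in Cebpe-negative than in Cebpe-positive cells, 4 of them more than 2-fold (0.355% of all genes compared were), with a median log2 ratio of 0.94, both on the scale of CPM + 10. The 4 were Adgrg1, Angpt1, Cd34 and Cd27, with log2 ratios of 1.46, 1.33, 1.24 and 1.01. Cd34, a sialomucin of progenitor cells, was at 257, 304 and 242 CPM in MxCre, 306, 350, 279 and 328 CPM in Dnmt3a, 258, 212 and 216 CPM in Dnmt3a;Tnfr1KO, and 152, 294, 202 and 278 CPM in Dnmt3a;Tnfr2KO. The Dnmt3a mice held 3 of the 4 highest values. In plain CPM of the deeper cells, with nothing added, Cd34 was 2.50-fold, Sox4 2.06-fold, Gata2 2.89-fold and Adgrg1 3.02-fold above the Cebpe-positive level, each in 14 of 14 libraries. Gata2 is a transcription factor of stem, mast and megakaryocyte progenitors, and Adgrg1 is an adhesion receptor of stem cells. Cd34 was detected in 86.3% of thinned Cebpe-negative cells and 53.2% of Cebpe-positive cells, and Gata2 in 19.9% and 8.98%. By the ratio of CPM + 10, the gene with the largest value was Ctla2a, a cysteine protease inhibitor of progenitors (142 against 35.8 CPM), followed by the interferon-induced membrane protein gene Ifitm1 (273 against 80.5 CPM). Cpa3, a carboxypeptidase of mast cells and their progenitors, stood at 214 against 78.3 CPM.

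Transcription factor genes differed less. Cebpa, which starts the granulocyte-monocyte programme, stood at 83.4 CPM in the deeper Cebpe-negative cells against 69.8 CPM and was higher in 13 of 14 libraries. Cebpb and Cebpd, its relatives of later myeloid cells, stood at 73.6 against 112 and at 47.5 against 86.1 CPM and were lower in all 14. Spi1, which encodes PU.1, stood at 218 against 248 CPM, Runx1 at 74.1 against 47.9 CPM and Myc at 148 against 111 CPM. Of 15 listed myeloid transcription factor genes compared, 9 were higher and 6 lower, with a median log2 ratio of 0.23. Among receptors, Csf3r, for the granulocyte growth factor G-CSF, stood at 40.5 against 46.2 CPM, Kit, for stem cell factor, at 111 against 89.5 CPM, and the interferon-gamma receptor gene Ifngr1 at 191 against 354 CPM. Ly6c2, a surface antigen that rises along the myeloid path, was detected in 36.6% of thinned Cebpe-negative and 73.3% of Cebpe-positive cells.

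Other lists of genes were compared the same way. Of 25 genes of the unfolded protein response and secretory pathway 23 were lower (median log2 ratio -0.29), with Xbp1, a driver of secretory capacity, at 83.8 against 114 CPM. Of 24 ribosome biogenesis genes 23 were higher (0.14), as were 14 of 14 interferon response genes (0.28), 11 of 14 immediate early genes (0.48), 29 of 41 S phase genes (0.06) and 37 of 47 G2 and M phase genes (0.11), where 60.9% of all genes compared were higher. Mki67, a marker of dividing cells, was detected in 58.1% of thinned Cebpe-negative and 57.6% of Cebpe-positive cells. Its level in the cells of at least 10000 UMIs was 208 against 149 CPM. NF-kB targets (5 of 8 higher), genes of signalling proximal to the TNF receptors (8 of 12), BCL2 family genes (3 of 6), DNA methylation genes (5 of 6) and cytokine receptor genes (5 of 10) had medians between -0.06 and 0.17. Of markers of other cell types, 4 of 5 basophil and mast cell genes (0.67), 3 of 4 monocyte genes (0.40), 3 of 3 dendritic cell genes (0.09) and 2 of 3 megakaryocyte genes (0.02) were higher. Only 1 of 7 erythroid genes was higher (-1.19), and the 1 eosinophil, 2 B lymphoid and 1 T, NK and innate lymphoid genes compared were lower.

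**Figure D2:**
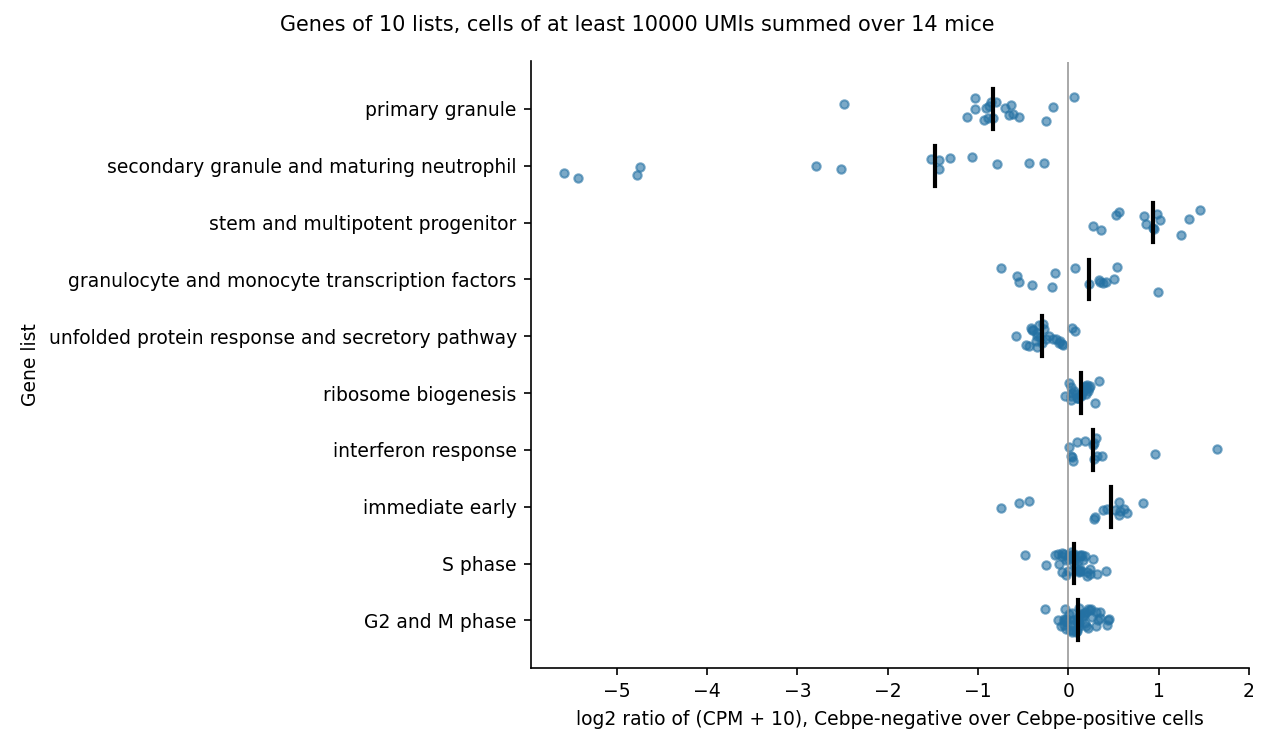
Log2 ratio of (CPM + 10) in Cebpe-negative over Cebpe-positive cells (horizontal axis) for the genes of 10 lists (vertical axis), in cells of at least 10000 UMIs, with a dot per gene and a black bar at each list's median. Secondary granule genes (-1.48) and primary granule genes (-0.84) lie lowest among the granulocyte lists and stem and multipotent genes (0.94) highest.

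The summed level of each other cell type's markers was read per mouse. The basophil and mast cell markers summed to 261 to 797 CPM with Cma1 at 0, and the erythroid markers to 96.7 to 1701 CPM, with Dnmt3a replicate 4 highest. Siglech, Cd209d, Xcr1, Clec9a and Zbtb46 of the dendritic cell list, Ppbp of the megakaryocyte list, Epx, Ear1, Ear2 and Ear6 of the eosinophil list, Pax5, Ms4a1, Rag1 and Ly6d of the B lymphoid list, and Cd3e, Cd3g, Trbc2, Cd7, Klrb1c, Ncr1 and Gzma of the T, NK and innate lymphoid list had no UMI in any Cebpe-negative cell. Ly86 and Csf1r, monocyte genes outside the rule, were detected in 0.932% and 4.66% of thinned Cebpe-negative cells against 44.2% and 26.7% of the monocyte-side cells.

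Within the Cebpe-negative cells, the progenitor and granule genes ran in opposite directions along Elane. The 322 deeper cells were put in 4 bins of Elane UMIs per 10000 (under 10, 10 to 30, 30 to 80, and 80 or more), which held 86, 97, 71 and 68 cells of 12 to 14 libraries each. Mpo rose over the bins from 3236 through 4193 and 5620 to 8135 CPM, Prtn3 from 2681 through 3660 and 5449 to 8442 CPM, and Prss57 from 76.2 through 121 and 227 to 370 CPM. Cd34 fell from 351 through 307 and 226 to 86.1 CPM, Sox4 from 210 through 181 and 132 to 51.0 CPM, and Gata2 from 61.8 through 37.7 and 9.77 to 4.31 CPM. The values of the last bin lie near those of Cebpe-positive cells for Prss57 (359 CPM), Cd34 (102 CPM) and B4galt6 (91.6 against 82.9 CPM), and far from them for S100a8 (190 against 2496 CPM).

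Flt3, a receptor of lymphoid and multipotent progenitors, went from 11.8 through 5.12 and 1.22 CPM to 0, and Ly6c2 from 8.27 through 20.9 and 195 to 731 CPM. Kit (133, 111, 96.5 and 92.3 CPM) and Mki67 (262, 197, 188 and 165 CPM) moved less. Cebpa went from 90.1 and 99.6 to 75.7 and 60.3 CPM. Cells of a bin share libraries and Elane is part of the rule, so the gradient is given as levels without a test. The median Elane UMIs per 10000 of the deeper cells was 18.1 in MxCre, 18.3 in Dnmt3a, 20.5 in Dnmt3a;Tnfr1KO and 31.1 in Dnmt3a;Tnfr2KO. The medians of single mice overlapped, at 13.1 to 72.3 in Dnmt3a;Tnfr2KO and 3.98 to 28.9 in Dnmt3a.

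**Figure D3:**
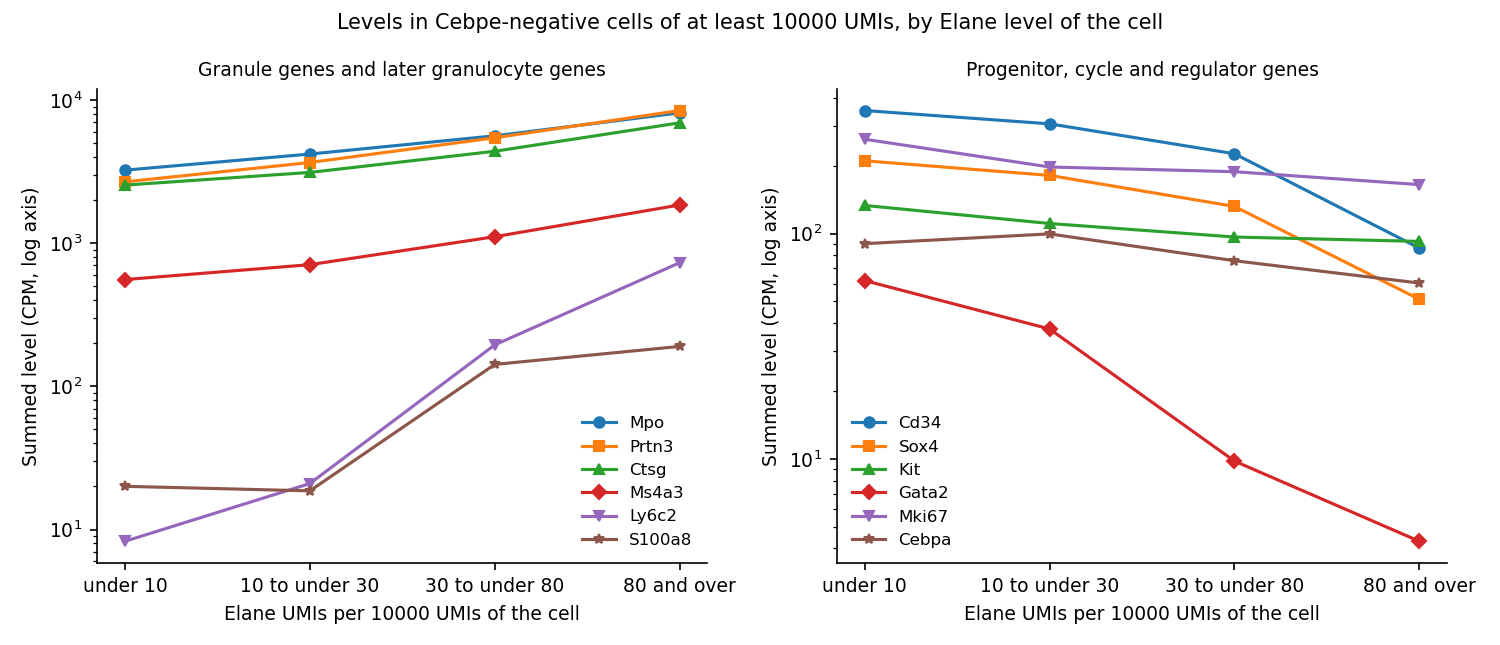
Level (CPM, logarithmic vertical axis) of granule, progenitor and other genes over 4 bins of Elane UMIs per 10000 (horizontal axis) in Cebpe-negative cells of at least 10000 UMIs. Mpo rises from 3236 to 8135 CPM and Cd34 falls from 351 to 86.1 CPM.

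The first comparison between genotypes asked whether the Cebpe-negative cells took a different share of the sorted cells. They were 0.340%, 0.556% and 0.282% of kept cells in MxCre, 0.358%, 0.363%, 0.610% and 0.176% in Dnmt3a, 0.863%, 0.190% and 0.536% in Dnmt3a;Tnfr1KO, and 0.671%, 0.695%, 1.03% and 0.734% in Dnmt3a;Tnfr2KO. The means were 0.393% ± 0.145 (SD, n = 3), 0.377% ± 0.178 (SD, n = 4), 0.530% ± 0.337 (SD, n = 3) and 0.782% ± 0.165 (SD, n = 4). All 4 Dnmt3a;Tnfr2KO mice lay above all 4 Dnmt3a mice, a difference of 0.405 percentage points with p = 0.0286 in a two-sided exact permutation test over mice, the smallest p the design allows, and 0.114 after Benjamini-Hochberg adjustment over the 4 comparisons. That does not pass the threshold of 0.05. Dnmt3a against MxCre (-0.0161 points, exact p = 0.914), Dnmt3a;Tnfr1KO against Dnmt3a (0.153 points, exact p = 0.400) and Dnmt3a;Tnfr2KO against Dnmt3a;Tnfr1KO (0.252 points, exact p = 0.257) were within the spread between mice, with adjusted p from 0.514 to 0.914.

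The rule was applied again to cells thinned to 10000 UMIs, where cells that lose their UMIs of Cebpe, F13a1, Irf8 or Ms4a2 can enter. The thinned set is thus not the same population. Its mean shares were 1.61%, 2.14%, 2.18% and 2.73%. The difference between Dnmt3a;Tnfr2KO and Dnmt3a was 0.584 points (exact permutation p = 0.229, adjusted 0.457), with overlapping mice. The Cebpe-negative share within the granulocyte pool was 5.26%, 6.15% and 5.73% in MxCre, 7.87%, 5.29%, 5.93% and 5.68% in Dnmt3a, 9.61%, 2.73% and 5.65% in Dnmt3a;Tnfr1KO, and 6.76%, 8.38%, 11.4% and 6.20% in Dnmt3a;Tnfr2KO. The last group differed from Dnmt3a by 1.99 points (exact permutation p = 0.171, adjusted 0.686), and the other 3 adjusted p were 0.743 to 0.943. In thinned cells that difference turned to -2.00 points (exact permutation p = 0.686, adjusted 0.686). The pool itself was on average 6.81%, 6.20%, 8.47% and 9.77% of kept cells in the 4 groups.

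**Figure D4:**
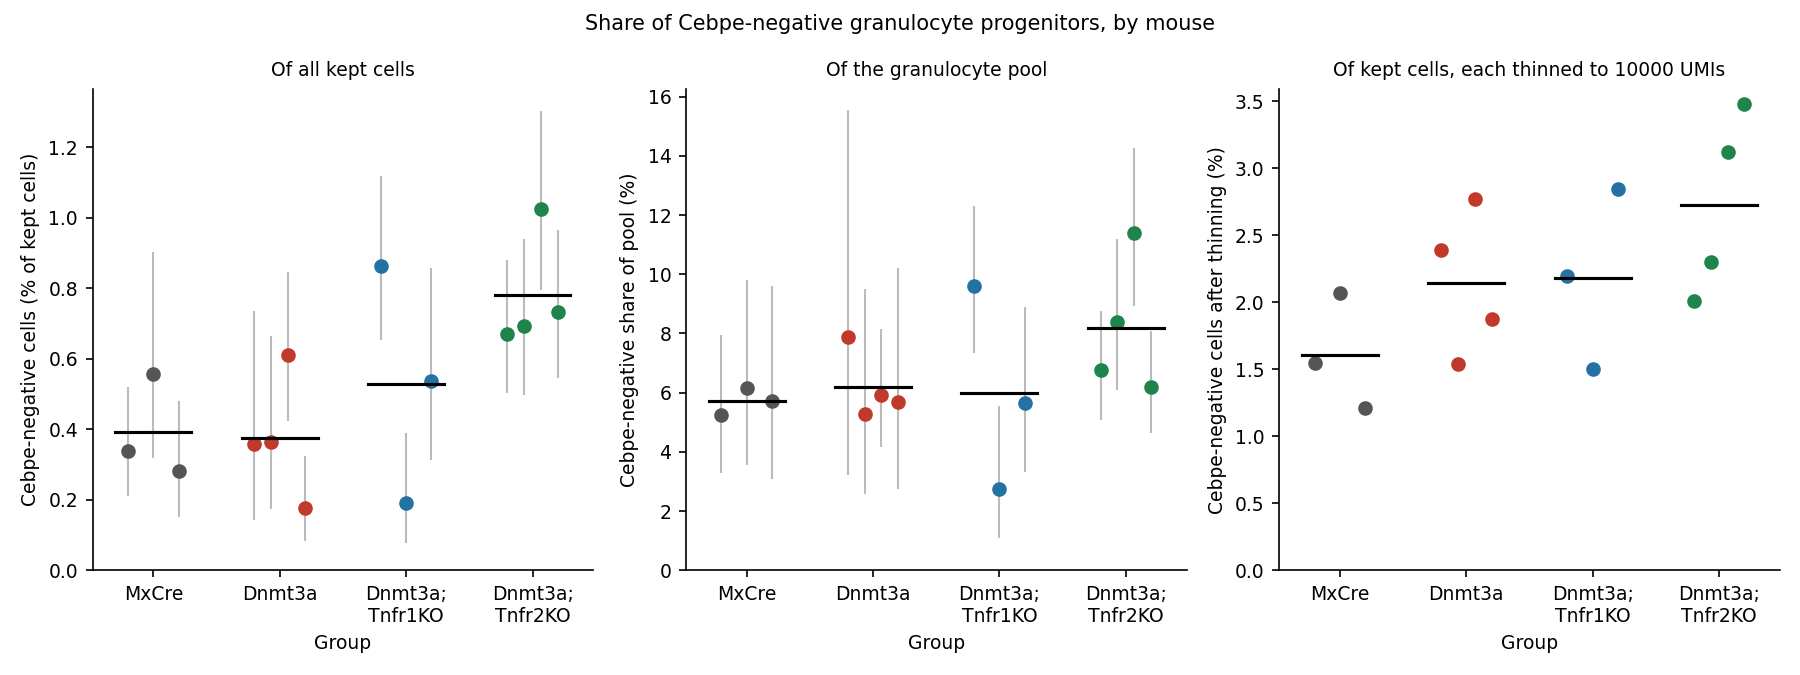
Cebpe-negative cells as a percent of kept cells, of the granulocyte pool and of kept cells thinned to 10000 UMIs (vertical axes of 3 panels) by genotype (horizontal axis), with a dot per mouse, grey exact 95% binomial intervals in the first panels and black lines at group means. The 4 Dnmt3a;Tnfr2KO mice lie between 0.671% and 1.03% of kept cells and the 4 Dnmt3a mice between 0.176% and 0.610%.

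Gene expression was compared on UMIs summed over the Cebpe-negative cells of each mouse, with edgeR's quasi-likelihood test and Benjamini-Hochberg adjustment over all genes tested. The targeted genes come first. Tnfrsf1b was at 11.0, 19.6 and 29.9 CPM in MxCre, 20.6, 8.90, 20.0 and 53.6 CPM in Dnmt3a, 12.7, 9.21 and 15.0 CPM in Dnmt3a;Tnfr1KO, and 5.43, 7.34, 4.97 and 7.39 CPM in Dnmt3a;Tnfr2KO. The last group lay below all other mice, with a log2 fold change of -1.59 ± 0.447 (SE) against Dnmt3a and an edgeR adjusted p of 0.0763 over all 14 libraries. The nearest other mice, Dnmt3a replicate 2 (8.90 CPM) and Dnmt3a;Tnfr1KO replicate 2 (9.21 CPM), gave 336938 and 217047 UMIs in these cells. Their Tnfrsf1b levels thus rest on few UMIs. Tnfrsf1a was at 36.4, 59.9 and 47.0 CPM in Dnmt3a;Tnfr1KO, within the range of 30.9 to 60.3 CPM of Dnmt3a (log2 fold change 0.08 ± 0.300, edgeR adjusted p = 0.942). The 3′ ends counted here do not show whether an upstream exon is missing, so Tnfrsf1a does not check those labels. Dnmt3a itself was at 31.5 ± 1.60 CPM (SD, n = 4) in Dnmt3a and at 24.5 ± 15.3 CPM (SD, n = 3) in MxCre, and its edgeR adjusted p was 0.774. Tnf had 14 UMIs in all 401 cells and was not tested.

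The planned fit used the 7 libraries with at least 20 Cebpe-negative cells, which leaves 1 mouse each of MxCre, Dnmt3a and Dnmt3a;Tnfr1KO beside 4 of Dnmt3a;Tnfr2KO. The single mice are assumed to vary like the 4. Of 7986 genes, 0 were called for Dnmt3a against MxCre (504 at an unadjusted p under 0.05, and 0 by DESeq2) and 0 for Dnmt3a;Tnfr2KO against Dnmt3a (420 unadjusted, and 1 by DESeq2). For Dnmt3a;Tnfr1KO against Dnmt3a 3 genes were called (0.0376%), all higher: Cxcl2, a neutrophil-attracting chemokine, Nfkbia, the NF-kB inhibitor that NF-kB itself induces, and Junb, an immediate early transcription factor. For Dnmt3a;Tnfr2KO against Dnmt3a;Tnfr1KO 12 genes were called (0.15%), all lower, among them Nfkbia (log2 fold change -3.27), Egr1 (-3.31), Ier3 (-2.23), Fos (-2.18), Jun (-2.02), Junb (-2.00) and Jund. Both comparisons contain the same Dnmt3a;Tnfr1KO mouse.

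These calls rested on Dnmt3a;Tnfr1KO replicate 1, the only mouse of its group in that fit. A fit in thinned cells, chosen again by the rule after thinning, differs in both cells and mice. In cells thinned to 10000 UMIs, where all 14 libraries entered the fit, 0 of the 3 and 1 of the 12 genes were called. Nfkbia was at 328 CPM in that mouse and at 13.8 to 62.3 CPM in the 13 others, with 13.8 and 55.6 CPM in the other 2 Dnmt3a;Tnfr1KO mice. Junb was at 223 CPM against 27.5 to 65.6 CPM, Jun at 433 against 41.5 to 156 CPM and Ier3 at 122 against 17.8 to 34.3 CPM. Cxcl2 had 65 UMIs in that mouse, in 5 of its 56 cells, and 0 UMIs in the Cebpe-negative cells of the 13 others. In cells of at least 10000 UMIs Nfkbia was at 356 CPM and Junb at 246 CPM in that mouse. The 31 immediate early genes summed to 2380 CPM in its Cebpe-negative cells, 1031 CPM in its Cebpe-positive cells and 1628 CPM in its other kept cells. In the other 13 mice the sums were 571 to 1106, 697 to 999.7 and 833 to 1743 CPM in the same sets. Dnmt3a replicate 4 was highest in the other kept cells, above that mouse. Of 21 immediate early genes compared in the planned fit between that mouse and 1 Dnmt3a mouse, 19 had higher values (median log2 fold change 1.54). Of 17 NF-kB targets 15 had higher values (0.88), where 3994 of all 7986 genes did and the median of all was 0.00.

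**Figure D5:**
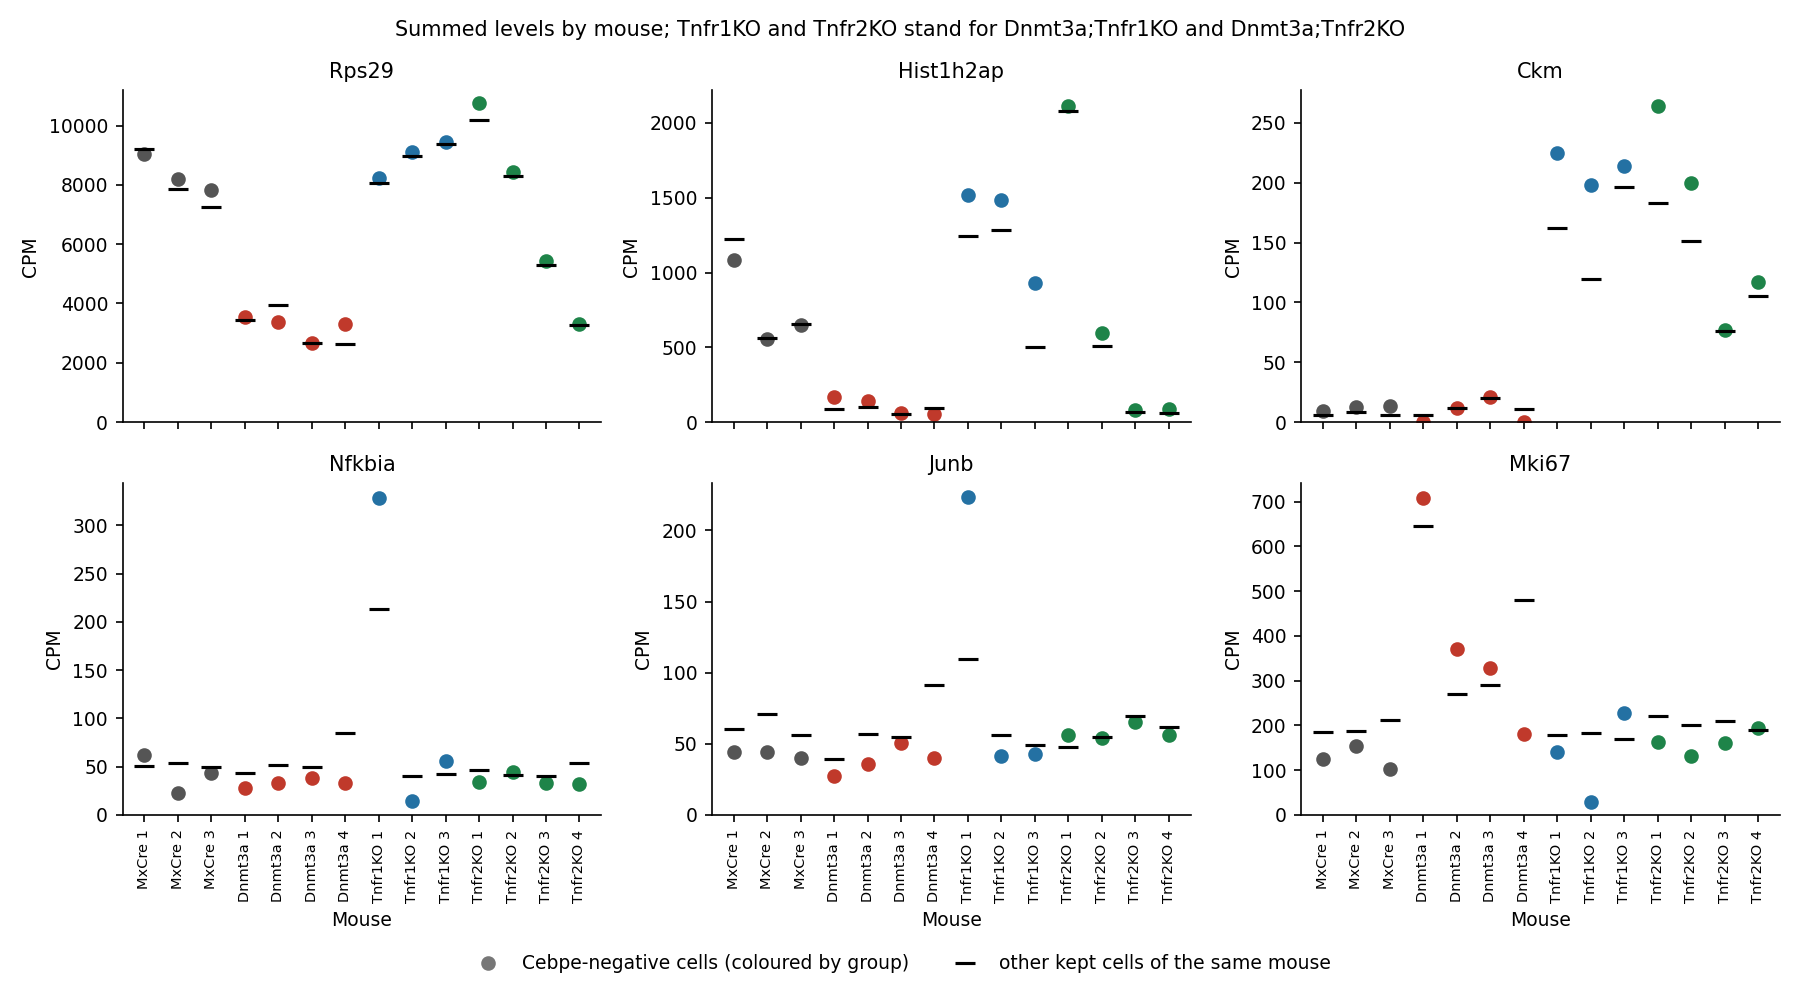
Levels (CPM, vertical axes from 0) of Rps29, Hist1h2ap, Ckm, Nfkbia, Junb and Mki67 in the Cebpe-negative cells of each of 14 mice (dots coloured by genotype) and in the other kept cells of the same mouse (dashes). Nfkbia is at 328 CPM in 1 Dnmt3a;Tnfr1KO mouse and at 13.8 to 62.3 CPM in the 13 others, and Rps29 is at 2671 to 3526 CPM in Dnmt3a.

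A fit over all 14 libraries, added after the data were seen so that every mouse counts, tested 6276 genes. It called 49 genes (0.781%) for Dnmt3a against MxCre, 8 higher (0.127%) and 41 lower (0.653%). It called 66 (1.05%) for Dnmt3a;Tnfr1KO against Dnmt3a, 52 higher (0.829%) and 14 lower (0.223%), and 76 (1.21%) for Dnmt3a;Tnfr2KO against Dnmt3a, 54 higher (0.86%) and 22 lower (0.351%). For Dnmt3a;Tnfr2KO against Dnmt3a;Tnfr1KO it called 0 (211 at an unadjusted p under 0.05, and 0 by DESeq2). The first 3 comparisons share the Dnmt3a libraries, so a gene that is low or high in these mice appears in each of them. The counts also rested on single mice: without MxCre replicate 1 the first fell to 3 and without MxCre replicate 2 to 7, without Dnmt3a;Tnfr1KO replicate 1 the second fell to 25 and without replicate 2 of that group to 31, and without Dnmt3a;Tnfr2KO replicate 1 the third fell to 18.

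Genes of the cytosolic ribosome and of oxidative phosphorylation were among those called. Of 79 cytosolic ribosomal protein genes tested, 17 fell in Dnmt3a against MxCre and 76 had lower values (median log2 fold change -0.26). In Dnmt3a;Tnfr1KO against Dnmt3a 17 rose, 1 fell and 75 had higher values (0.25). In Dnmt3a;Tnfr2KO against Dnmt3a 17 rose and 77 had higher values (0.24). Of 81 subunits of oxidative phosphorylation 4 fell, 8 rose and 10 rose in the same comparisons, with medians of -0.32, 0.29 and 0.28. Of all 6276 genes, 41 fell (0.653%) and 3021 had lower values in the first comparison, and 52 (0.829%) and 54 (0.86%) rose and 3091 and 3069 had higher values in the other two. Without MxCre replicate 1 the 3 genes called in the first comparison were Rps28, Rps29 and the non-coding Kcnq1ot1, so 2 of the 17 ribosomal calls and 0 of the 4 oxidative phosphorylation calls remained. Both families were picked by symbol after the called genes had been seen.

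Rps29, a protein of the small ribosomal subunit, was at 9034, 8212 and 7823 CPM in MxCre, 3526, 3389, 2671 and 3308 CPM in Dnmt3a, 8220, 9122 and 9448 CPM in Dnmt3a;Tnfr1KO, and 10776, 8432, 5429 and 3323 CPM in Dnmt3a;Tnfr2KO. The Dnmt3a mice lay together below all MxCre and Dnmt3a;Tnfr1KO mice, and Dnmt3a;Tnfr2KO replicate 4 lay among them. The log2 fold changes were -1.53 ± 0.225 (SE) for Dnmt3a against MxCre (edgeR adjusted p = 0.0015) and 1.64 ± 0.225 for Dnmt3a;Tnfr1KO against Dnmt3a (edgeR adjusted p = 0.000141). The other kept cells of the same libraries lie outside the granulocyte pool and the monocyte-side cells. They include the 869 cells that failed only for lack of a Gfi1 UMI, and had 3872 CPM of Elane over all mice. Their Rps29 was at 9201, 7847 and 7240 CPM in MxCre, 3434, 3948, 2673 and 2635 CPM in Dnmt3a, 8066, 8957 and 9371 CPM in Dnmt3a;Tnfr1KO, and 10188, 8314, 5291 and 3282 CPM in Dnmt3a;Tnfr2KO. The Rps29 level thus went with the library in both sets of cells.

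Ckm, muscle creatine kinase, was at 9.17, 12.3 and 13.3 CPM in MxCre, at 0 to 21.2 CPM in Dnmt3a, at 225, 198 and 214 CPM in Dnmt3a;Tnfr1KO, and at 264, 199, 76.5 and 117 CPM in Dnmt3a;Tnfr2KO. It rose over the Dnmt3a level by 4.20 ± 0.458 (SE) on the log2 scale in Dnmt3a;Tnfr1KO (edgeR adjusted p = 4.71e-06) and by 3.81 ± 0.437 in Dnmt3a;Tnfr2KO (edgeR adjusted p = 6.71e-06). In the other kept cells it was at 5.51 to 20.2 CPM in MxCre and Dnmt3a and at 75.7 to 196 CPM in both receptor groups. The histone gene Hist1h2ap was at 1082, 555 and 650 CPM in MxCre and 53.6 to 168 CPM in Dnmt3a (log2 fold change -3.01 ± 0.708, edgeR adjusted p = 0.037), but at 83.5 and 87.7 CPM in Dnmt3a;Tnfr2KO replicates 3 and 4, and its other kept cells again had like values, 54.6 to 103 CPM in Dnmt3a and 565 to 1224 CPM in MxCre. In Dnmt3a;Tnfr1KO Hist1h2ap was at 930 to 1518 CPM, above Dnmt3a by a log2 fold change of 3.81 ± 0.708 (edgeR adjusted p = 0.00436). That call held in 23 of 23 alternative fits. The Hist1h2ap call in Dnmt3a against MxCre, by contrast, was lost when any 1 of the 7 MxCre and Dnmt3a mice was left out (edgeR adjusted p up to 0.244). Another histone gene, Hist1h1b, rose in the same comparison, at 810 to 3722 CPM in Dnmt3a and 379 to 545 CPM in MxCre (log2 fold change 1.65 ± 0.364, edgeR adjusted p = 0.0254), and lost the call without Dnmt3a replicate 1 and without each of the 3 MxCre mice. Of 31 replication-dependent histone genes tested, 19 had higher and 12 lower values there (median 0.50). Against Dnmt3a, 2 rose and 1 fell in Dnmt3a;Tnfr1KO, and 1 rose and 4 fell in Dnmt3a;Tnfr2KO. Of all 6276 genes, 3255 had higher values in Dnmt3a than in MxCre, 52 rose and 14 fell in Dnmt3a;Tnfr1KO, and 54 rose and 22 fell in Dnmt3a;Tnfr2KO. The planned fit, with 1 mouse of MxCre and 1 of Dnmt3a, went the other way for the histone list. There 9 of 38 histone genes had higher and 29 lower values in Dnmt3a (median log2 fold change -0.49). Library preparation dates are not given in the sources used here, so genotype and a batch of libraries cannot be told apart for these genes.

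Genes of cell division were read as a list. Of 48 G2 and M phase genes tested, 1 rose in Dnmt3a against MxCre (37 had higher values, median log2 fold change 0.31), 3 fell in Dnmt3a;Tnfr1KO (45 had lower values, median log2 fold change -0.44) and 2 fell in Dnmt3a;Tnfr2KO (44 had lower values, -0.42). Of all 6276 genes, 8 rose and 3255 had higher values in the first comparison, 14 fell and 3185 had lower values in Dnmt3a;Tnfr1KO, and 22 fell and 3207 had lower values in Dnmt3a;Tnfr2KO. The planned fit, with 1 mouse of MxCre and 1 of Dnmt3a, went the other way in the first comparison. There 21 of 51 genes of the list had higher and 30 lower values (median log2 fold change -0.15), where 3980 of all 7986 genes had higher values. Mki67, the gene that rose in Dnmt3a (log2 fold change 1.49 ± 0.337 SE, edgeR adjusted p = 0.0291), was at 125, 155 and 103 CPM in MxCre, 707, 371, 328 and 181 CPM in Dnmt3a, 141, 27.6 and 227 CPM in Dnmt3a;Tnfr1KO, and 162, 132, 160 and 194 CPM in Dnmt3a;Tnfr2KO. Dnmt3a replicate 1 was highest, and the call was lost without it and without each of the 3 MxCre mice. The other kept cells had 271 to 646 CPM in Dnmt3a and 186 to 212 CPM in MxCre. Median UMIs per Cebpe-negative cell were 26151, 26404 and 20361 in MxCre and 45058, 40579, 24536 and 3366 in Dnmt3a. Over all mice, Mki67 in Cebpe-negative cells was at 111, 209 and 422 CPM in the depth bins from 10000, 20000 and 40000 UMIs. The bins below 10000 UMIs had 53.7, 157 and 48.7 CPM. How far depth and genotype each bear on Mki67 and on this list was not tested. Anp32e, a histone chaperone on the same list, fell in both receptor groups against Dnmt3a, by 0.68 and 0.81 on the log2 scale (edgeR adjusted p = 0.0297 and 0.00252). The first of these calls was lost without Dnmt3a replicate 1 and without each of the 3 Dnmt3a;Tnfr1KO mice. Mki67 and Hmmr, the other genes of the list that fell in Dnmt3a;Tnfr1KO, lost the call more often. Both lost it without replicate 1 and without replicate 2 of MxCre, of Dnmt3a and of Dnmt3a;Tnfr1KO. Leaving out Dnmt3a;Tnfr2KO replicate 2 or replicate 3 also lost both, and leaving out Dnmt3a;Tnfr1KO replicate 3 lost Hmmr. Kcnq1ot1, a long non-coding RNA, rose in Dnmt3a against MxCre by a log2 fold change of 1.41 (edgeR adjusted p = 0.00237), from 99.5 to 128 CPM up to 181 to 494 CPM, with 251 to 569 CPM in the other kept cells of the Dnmt3a mice.

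The granule and progenitor genes that describe these cells were not called between genotypes, with 1 exception. Of 18 primary granule genes tested over all 14 libraries, 0 were called by edgeR in any of the 4 comparisons, and their median log2 fold changes were -0.14, 0.28, 0.49 and 0.11. In the planned fit, with 1 mouse in each group but Dnmt3a;Tnfr2KO, the medians were 0.17, 0.19, 0.21 and -0.02. Of all 6276 genes 49 (0.781%), 66 (1.05%), 76 (1.21%) and 0 were called. At such shares a list this short is not likely to hold a called gene, so the counts called say little about these lists. Against Dnmt3a, 16 of the 18 had higher values in Dnmt3a;Tnfr1KO and 17 of the 18 in Dnmt3a;Tnfr2KO, where 3091 and 3069 of all 6276 genes did. The summed primary granule level was 21323 ± 3504 CPM (SD, n = 3) in MxCre, 19862 ± 2945 CPM (SD, n = 4) in Dnmt3a, 22320 ± 1770 CPM (SD, n = 3) in Dnmt3a;Tnfr1KO and 24154 ± 3770 CPM (SD, n = 4) in Dnmt3a;Tnfr2KO, and the ranges of all 4 groups overlapped. Of 14 stem and multipotent genes tested, 11 had higher values in Dnmt3a than in MxCre (median 0.24) and 0 were called. In Dnmt3a;Tnfr1KO against Dnmt3a 11 had lower values (-0.35) and 0 were called, and in Dnmt3a;Tnfr2KO against Dnmt3a 12 had lower values (-0.29). Of all 6276 genes, 3255 had higher values in the first of these comparisons, and 3185 and 3207 had lower values in the other two, with 22 called lower in the last. Adgrl4, an adhesion receptor of endothelial and stem cells, was the 1 gene called there, lower by a log2 fold change of -0.71 (edgeR adjusted p = 0.0489), at 72.8 to 91.7 CPM against 107 to 228 CPM. It lost the call in 13 of the 14 fits that leave out 1 mouse. Genes of both lists vary with the Elane level of a cell, as the bins above show. In the deeper cells median Elane UMIs per 10000 were 18.3 in Dnmt3a, 20.5 in Dnmt3a;Tnfr1KO and 31.1 in Dnmt3a;Tnfr2KO. Median UMIs per Cebpe-negative cell were 3366 to 45058, 6463.5 to 31765 and 15287.5 to 21904 in the mice of these groups. How far the directions above follow from the cells chosen was not tested.

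Single genes of other lists were also called. Mcpt8, a basophil protease, rose in Dnmt3a;Tnfr1KO against Dnmt3a (log2 fold change 1.58, edgeR adjusted p = 0.0445), but it was at 385 CPM in replicate 3 and at 85.6 and 82.9 CPM in the other 2, and it lost the call without replicate 3 and in 6 of the other 13 fits that leave out 1 mouse. Hbb-bs, a beta globin, fell in Dnmt3a;Tnfr2KO against Dnmt3a (log2 fold change -3.51, edgeR adjusted p = 0.0447) and rested on Dnmt3a replicate 4, at 837 CPM against 5.94 to 41.2 CPM in the other 3 mice, and it lost the call without that mouse and in 7 of the other 13 such fits. That library had 12934 CPM of Hbb-bs in its other kept cells, against 145 to 480 CPM in the other Dnmt3a libraries. Nfkbia, Junb and Ier3 rose in Dnmt3a;Tnfr1KO here too, and none was called without replicate 1 (edgeR adjusted p = 0.814, 0.931 and 0.733). Junb and Ier3 also lost the call without each of the 4 Dnmt3a mice, and Nfkbia without Dnmt3a replicate 3.

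A last comparison asked whether a change between genotypes differed between Cebpe-negative and Cebpe-positive cells of the same mice, as an interaction in one model with the mouse as a block. Over all 14 libraries and 10194 genes it called 0, 0, 1 (0.00981%) and 0 genes in the 4 comparisons, with 407, 448, 436 and 386 at an unadjusted p under 0.05. The 1 gene was Igkc, an immunoglobulin light chain, which had 0 to 13.4 CPM in the Cebpe-negative cells of each mouse and 228 CPM in the Cebpe-positive cells of Dnmt3a;Tnfr2KO replicate 4. The ribosomal, histone and Ckm genes above, the histone genes in either direction, were thus not called as changing differently from the Cebpe-positive cells. In the planned fit of 7 libraries and 12329 genes, 3 genes were called for Dnmt3a against MxCre (0.0243%), 8 for Dnmt3a;Tnfr1KO against Dnmt3a (0.0649%), 3 for Dnmt3a;Tnfr2KO against Dnmt3a (0.0243%) and 14 for Dnmt3a;Tnfr2KO against Dnmt3a;Tnfr1KO (0.114%). In the first pair of comparisons all were higher. In Dnmt3a;Tnfr2KO against Dnmt3a 2 were higher (0.0162%) and 1 lower (0.00811%), and against Dnmt3a;Tnfr1KO 2 were higher (0.0162%) and 12 lower (0.0973%). Fos (1.70 ± 0.308 SE), Jun (1.34 ± 0.205), Junb (1.77 ± 0.294) and Nfkbia (1.45 ± 0.300) were among the 8, as the log2 change in Cebpe-negative cells minus that in Cebpe-positive cells, with edgeR adjusted p of at most 0.0224 for all 8. That comparison sets 1 Dnmt3a;Tnfr1KO mouse against 1 Dnmt3a mouse. DESeq2 called 0 of the genes there in the same 7 libraries (88 at an unadjusted p under 0.05), and the fit over all 14 libraries called 0.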

How the data were processed

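Each of the 14 libraries (1 mouse each, 10x Genomics 3′ version 3.1 chemistry per the labels' protocols) was deposited as a matrix of raw UMI counts per gene and cell barcode. Per the file headers, the authors' counting program was Cell Ranger 6.0.0, and bcl2fastq 2.20.0.422 and the mm10/GRCm38 build are named in the submitters' processing notes. All libraries list the same 32285 genes. Symbols were taken from the files and gene positions from RefSeq (GRCm38.p6).

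Cells were kept with at least 1000 UMIs, 500 genes and under 10% mitochondrial UMIs. The cells, gene lists and named genes were chosen with earlier results of these data known. Levels are CPM of the UMIs summed over the cells of a mouse or, where no mouse is named, over all mice. Doublets were scored from simulated pairs of cells and were left out only as an alternative. Shares were compared over mice with exact permutation tests. Summed counts were compared with edgeR 4.0.16 (TMM factors, filterByExpr, quasi-likelihood test, adjusted p below 0.05), in libraries with at least 20 of the cells and, added later, in all 14. The 6 genes of the rule were counted in library sizes but not tested. DESeq2 1.42.0 was an alternative. The fits were tested on simulated data. The receptor genes, Dnmt3a, Tnf and the primary granule genes were named in any case. Beyond these, up to 8 called genes of largest change per direction were eligible where the mean reached 20 CPM and the 2 groups did not overlap, and up to 4 called genes per list. Genes named in the contrast with Cebpe-positive cells beyond these were chosen after their values were seen. Alternatives covered normalization, the filter on low counts, thinning, depth, the Elane threshold, doublets, the samples of a fit, pairing by replicate number and leaving out each mouse. The 14 libraries gave 149337 to 1083023 UMIs in the chosen cells, which limits precision for genes of few counts.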

Additional observations from a re-analysis of the deposited data

Results flagged for a closer look

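In 10 of 124 groups of 4 mice examined, 1 mouse stood apart from the other 3 by more than 0.829 of the group's range. Chance gives about 1 in 20 for independent items, and the histone items of Dnmt3a replicate 1 below are linked. In Dnmt3a, replicate 1 had a histone gene sum of 11379 CPM (the other 3 had 2016 to 3327 CPM), with Hist1h1b at 3722 CPM, Hist2h2ac at 718 CPM, Ankrd11 at 312 CPM and Sptbn1 at 333 CPM. This library kept 26.9% of its barcodes and gave 7 Cebpe-negative cells, and its histone sum was 8647 CPM in Cebpe-positive and 8549 CPM in other kept cells. Replicate 4 of Dnmt3a had Hbb-bs at 837 CPM and Tmem258 at 261 CPM (247 to 249 CPM in the others), and replicate 3 had Egr1 at 7.06 CPM where the others had 0. That Egr1 value is 6 UMIs, near the floor, in the library of its group with most UMIs in these cells. In Dnmt3a;Tnfr2KO, replicate 3 had Hist2h2ac at 77.5 CPM (16.3 to 25.7 CPM) and replicate 2 had Nfkbia at 44.0 CPM (32.3 to 33.7 CPM).

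The change between genotypes differed between Cebpe-negative and Cebpe-positive cells for the following genes, given as the log2 change in the former minus that in the latter (edgeR interaction test, adjusted p below the threshold). Over all 14 libraries Igkc differed by -5.94 for Dnmt3a;Tnfr2KO against Dnmt3a, and in the 7 libraries by -5.93. The rest come from the 7 libraries, where MxCre, Dnmt3a and Dnmt3a;Tnfr1KO have 1 mouse each. In the same 7 libraries DESeq2 called 0 genes in the first 3 comparisons and 3 in the last, and over all 14 libraries edgeR called 0 besides Igkc, so these differences describe those mice. For Dnmt3a against MxCre, S100a8 differed by 3.65, Ly6c2 by 2.15 and Clec12a, a myeloid lectin receptor, by 1.08. For Dnmt3a;Tnfr2KO against Dnmt3a, Hbb-bs differed by 2.11 and Ly6c2 by 0.66.

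For Dnmt3a;Tnfr1KO against Dnmt3a, the immediate early genes Fos (1.70), Jun (1.34), Junb (1.77) and Jund (0.98) differed, with Nfkbia (1.45), the nuclear RNA Neat1 (1.24), S100a10 (1.02) and Gm42418 (0.57). For Dnmt3a;Tnfr2KO against Dnmt3a;Tnfr1KO, Fos (-1.60), Jun (-1.19), Junb (-1.48), Jund (-0.81), Ier2 (-0.79), Zfp36 (-1.50), Nfkbia (-1.49), Neat1 (-0.92), Gm42418 (-0.37), Cd69 (-1.27), Ifitm1 (-0.73) and Arhgap31 (-2.21) differed downwards, and the mitotic kinase gene Aurka (2.39) and Ly6c2 (0.89) upwards. Both comparisons contain Dnmt3a;Tnfr1KO replicate 1, the library with 29 of 56 Cebpe-negative cells under 10000 UMIs.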

How the results depend on the processing

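Choices of cells and genes moved the counts of called genes, and each count below is given in the order Dnmt3a against MxCre, Dnmt3a;Tnfr1KO against Dnmt3a, Dnmt3a;Tnfr2KO against Dnmt3a, and Dnmt3a;Tnfr2KO against Dnmt3a;Tnfr1KO. The 7-library fit (0, 3, 0 and 12) gave 61, 56, 58 and 44 without the filter on low counts, 90, 84, 115 and 5 in cells thinned to 10000 UMIs (which brings all 14 libraries to at least 20 cells, so that the mice change too, and shares 0 of the 3 and 1 of the 12 calls), and 49, 66, 76 and 0 over all 14 libraries. DESeq2 gave 1 in the third and 5 in the last. Leaving out 1 mouse gave 0 to 7, 3 to 20, 0 to 19 and 11 to 16. The all-library fit (49, 66, 76 and 0) gave 112, 131, 173 and 18 without the filter, 90 in the first, 115 in the third and 5 in the last when thinned, 106 and 105 in the first pair with DESeq2, 14 in the first and 41 in the third with Elane of at least 20, and 23 in the third and 2 in the last with only the groups compared. Leaving out 1 mouse gave 3 to 64, 25 to 80, 18 to 87 and 0 to 6. Thinning also changes which cells count as Cebpe-negative, since the rule was applied again to the thinned UMIs. Cells then enter by losing their UMIs of Cebpe, F13a1, Irf8 or Ms4a2, and others leave by losing those of Gfi1 or Elane. Beyond these constructions the cause was not tested. In the 7-library fit the only mouse of MxCre, Dnmt3a or Dnmt3a;Tnfr1KO cannot be left out of its own comparison. The ranges for that fit, and for the interaction in 7 libraries below, thus cover only the other mice.

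The interaction in 7 libraries (3, 8, 3 and 14) gave 0, 0, 0 and 3 with DESeq2, 6 in the first with RLE factors, 5, 4, 1 and 6 when thinned (again with 14 libraries), 0, 0, 1 and 0 over all libraries, and 2 to 10, 7 to 10, 1 to 5 and 9 to 26 without 1 mouse. Over all libraries (0, 0, 1 and 0) it gave 4, 8, 6 and 8 without the filter, 5, 4 and 6 in all but the third when thinned, 0 in the third with DESeq2, 3 in the last with RLE factors, and 0 to 2, 0 to 3, 0 to 1 and 0 to 4 without 1 mouse.

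Replicate numbers did not pair the mice: 19 same-numbered pairs had a median correlation of 0.0232 (-0.122 to 0.0754). With the replicate block the all-library counts were 38, 65, 91 and 0. No block could be fitted in the 7 libraries.

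Of shares, Dnmt3a against MxCre turned to 0.535 points of kept cells when thinned, and to -0.0899 (Elane of at least 20) and -0.474 points (at least 10000 UMIs, not thinned) of the pool, from a main value of 0.478. Dnmt3a;Tnfr2KO against Dnmt3a turned from 1.99 to -2.00 points of the pool when thinned. With stricter cell filters the Dnmt3a;Tnfr2KO share of kept cells exceeded Dnmt3a by 0.412 and Dnmt3a;Tnfr1KO by 0.318 points, both with an exact permutation adjusted p of 0.0571. The Dnmt3a;Tnfr2KO and Dnmt3a mice overlapped with Elane of at least 20 (0.297 points, adjusted p = 0.229) and in cells of at least 10000 UMIs not thinned (0.421 points, adjusted p = 0.171), both with an exact permutation p of 0.0571. Without 1 mouse the kept-cell differences ran from -0.0937 to 0.0657, -0.0139 to 0.323, 0.323 to 0.483 and 0.0821 to 0.419 points, and the pool differences from -0.0796 to 0.778, -2.00 to 1.43, 0.922 to 2.66 and 0.559 to 3.99.

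Among single genes, the receptor genes and Dnmt3a were not called in the fit over all 14 libraries, and the log2 fold change of Tnfrsf1a turned to 0.13 (thinned) and 0.0459 (Elane of at least 20) for Dnmt3a against MxCre and to -0.43 and -0.16 for Dnmt3a;Tnfr1KO against Dnmt3a, with -0.376 to 0.0469 and -0.0654 to 0.363 without 1 mouse. Tnfrsf1b turned to -0.0584 (at least 10000 UMIs) and -0.19 (replicate block) for Dnmt3a against MxCre, with -0.308 to 0.377 without 1 mouse. Dnmt3a ran from -0.145 to 0.809 there without 1 mouse, and turned to 0.0520 (thinned) and 0.00575 (Elane of at least 20), with -0.225 to 0.0471 without 1 mouse, for Dnmt3a;Tnfr2KO against Dnmt3a;Tnfr1KO. Ccdc18, called lower in Dnmt3a;Tnfr2KO against Dnmt3a (-1.31), was at 0.0385 when thinned. The drop of Tnfrsf1b in Dnmt3a;Tnfr2KO passed the edgeR threshold without the filter, when thinned and without Dnmt3a replicate 2. Each library held 7 to 66 of the cells, which limits the precision.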
